A study of Mus musculus with 6 samples.

Results

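The Schlafen family of the mouse was read in microglia, the brain's own macrophages, that were sorted after a demyelinating injury of the corpus callosum. The 7 members Slfn1, Slfn2, Slfn3, Slfn4, Slfn5, Slfn8 and Slfn9 were taken by gene symbol and joined by Ensembl identifier to the deposited counts, and all 7 were among the 24984 genes of the count table. All mice were male C57BL/6J of 10 weeks that received 2 µl of 1% lysolecithin (LPC), a detergent-like lipid that destroys myelin, by stereotaxic injection into the corpus callosum. The groups were LPC day 3 and LPC day 10 after the injection, with 3 libraries each and 1 mouse per library by the design text. Live cells were gated as CD11b positive, Ly6G and CD3 negative and CD45 low, and their polyadenylated RNA was amplified and sequenced with paired reads of 100 bp. All libraries came from injected tissue, so each comparison sets the later lesion against the earlier one. In sorted bulk samples, fewer cells that express a gene and less RNA per cell cannot be told apart.

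Schlafen proteins take their name from the German for sleeping, after the growth arrest seen in mouse thymocytes made to express Slfn1. Many of the genes are induced by type I interferon in macrophages and fibroblasts, and the proteins share an amino-terminal fold that binds RNA and in several family members cuts transfer RNA. The short members Slfn1 and Slfn2 hold little beyond this fold, Slfn3 and Slfn4 are of intermediate length, and the long members Slfn5, Slfn8 and Slfn9 add a helicase-like carboxy-terminal part. Slfn2 is known from mutant mice as a gene that T cells and monocytes need to stay quiescent, and Slfn4 as a gene of myeloid cells and their progenitors.

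The 7 members lie side by side on chromosome 11 (GRCm38), within chr11:82951349-83215154. The order along the chromosome is Slfn5, Slfn9, Slfn8, Slfn2, Slfn1, Slfn4 and Slfn3, with Slfn9 and Slfn8 on the minus strand and the others on the plus strand. The pseudogene Slfn10-ps lies between Slfn8 and Slfn2, and Slfn14 beyond Slfn3. The long members Slfn5 (chr11:82951349-82964840), Slfn9 (chr11:82978390-82991830) and Slfn8 (chr11:83002158-83020810) held most of the signal of the cluster at both times. Slfn2 (chr11:83065112-83070678) followed, and Slfn1 (chr11:83116849-83122670), Slfn4 (chr11:83175186-83190216) and Slfn3 (chr11:83191330-83215154) had counts in 3, 1 and 2 of the 6 libraries.

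**Figure D1:**
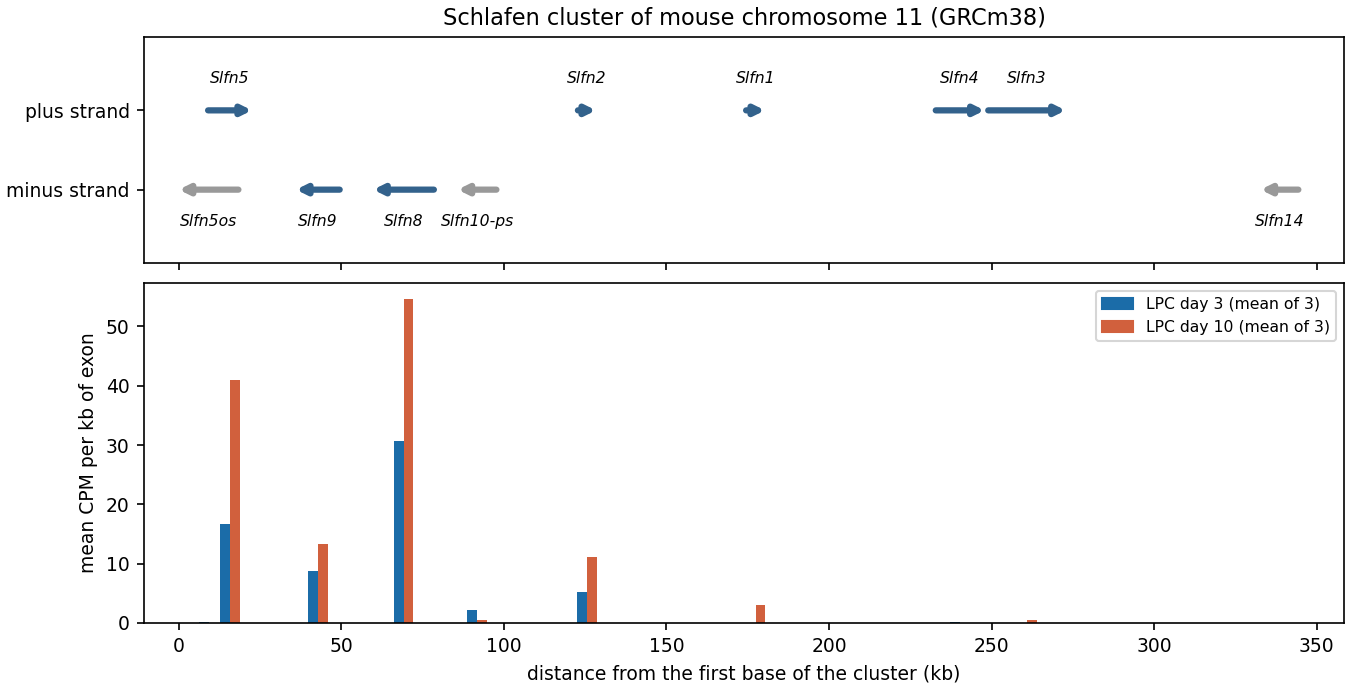
Map of the Schlafen cluster on chromosome 11 (upper panel, arrows give strand, members in blue and other Schlafen-named genes in grey) above the mean level of each gene in CPM per kb of exon, without error bars (lower panel, blue for LPC day 3 and orange for LPC day 10, 3 libraries each). The x axis is the distance from the first base of the cluster in kb. The highest bars belong to Slfn8, with means of 30.7 at day 3 and 54.6 at day 10.

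Because interferon-induced genes often carry an interferon-stimulated response element (ISRE) near their start, the bases before each start in RefSeq (GRCm38.p6) were searched on both strands. All 7 members matched, with 1 start each except for Slfn8, which has 2. The ISRE core, GAAA followed after any 2 bases by a second GAAA, was found within 250 bases before the start of Slfn5, Slfn8 and Slfn9, which are the 3 members of highest level, and not in the windows of Slfn1, Slfn2, Slfn3 and Slfn4. Of all 32851 RefSeq windows of this length, 2.98% held it. The windows are shown on the gene's own strand, with the core in capitals. The Slfn5 window (chr11:82951852-82951984, plus strand) lies before the RefSeq start. In GENCODE M21 it is within an intron of a transcript that begins further upstream, at the annotated start of the gene, and it is shown up to the next exon of that transcript. The windows of Slfn8 (chr11:83020811-83021060, minus strand, the start further upstream) and Slfn9 (chr11:82991831-82992080, minus strand) hold the core on the opposite strand, as TTTC with 2 bases before a second TTTC, beginning 48 and 45 bases before the start. In Slfn5 it begins 155 bases before the RefSeq start.
Slfn5: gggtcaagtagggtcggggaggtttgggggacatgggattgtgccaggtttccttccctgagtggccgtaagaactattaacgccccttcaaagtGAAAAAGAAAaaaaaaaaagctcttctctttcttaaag
Slfn8: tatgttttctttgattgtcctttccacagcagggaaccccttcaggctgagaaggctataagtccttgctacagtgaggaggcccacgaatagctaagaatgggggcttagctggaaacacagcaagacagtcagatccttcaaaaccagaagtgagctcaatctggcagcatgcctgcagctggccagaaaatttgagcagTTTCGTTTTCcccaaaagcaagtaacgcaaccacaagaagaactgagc
Slfn9: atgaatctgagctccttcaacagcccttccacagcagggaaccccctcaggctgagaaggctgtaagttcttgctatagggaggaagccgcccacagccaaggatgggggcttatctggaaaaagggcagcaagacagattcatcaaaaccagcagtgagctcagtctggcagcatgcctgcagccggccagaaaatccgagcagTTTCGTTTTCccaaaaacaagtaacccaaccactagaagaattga
The matches of Slfn8 and Slfn9 have the same letters, and their longest transcripts are 92.6% identical, so they are not independent matches. The match of Slfn5 runs into a stretch of A. A match here is a match of letters, and binding was not measured. Whether the core bears on the level of these genes was not tested.

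The windows of the short and intermediate members shared another stretch, ACTTCCTGG, which was noticed on reading these windows and chosen after that. It lay on the plus strand 74, 55, 42 and 73 bases before the starts of Slfn1, Slfn2, Slfn3 and Slfn4, and was in 0.70% of all windows when searched on both strands. It contains CTTCCT, whose other strand carries the GGAA that ETS factors bind. That shorter motif was in 29.5% of all windows, and among those of the long members in that of Slfn9. Each sequence below is 60 bases on the plus strand with the stretch in capitals. They come from chr11:83116721-83116780 for Slfn1, chr11:83065032-83065091 for Slfn2, chr11:83191263-83191322 for Slfn3 and chr11:83175088-83175147 for Slfn4.
Slfn1: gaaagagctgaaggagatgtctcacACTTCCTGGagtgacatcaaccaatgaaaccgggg
Slfn2: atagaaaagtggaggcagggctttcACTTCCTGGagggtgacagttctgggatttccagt
Slfn3: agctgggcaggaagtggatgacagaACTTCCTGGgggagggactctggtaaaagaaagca
Slfn4: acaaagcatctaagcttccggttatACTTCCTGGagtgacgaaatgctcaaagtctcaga
The stretch was not found in the windows of Slfn5, Slfn8 and Slfn9.

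The libraries held 5890081 to 9212197 counts assigned to genes. Levels are counts scaled to library size by the trimmed mean of M values (TMM), written CPM, and 3 counts, the limit that a count of 0 allows, equal 0.295 to 0.807 CPM. Values of single libraries are listed in the order of replicates 1, 2 and 3. LPC day 10 replicate 3 was unlike the rest. It lacked any count for 15.4% of the 10535 genes tested, where the other 5 lacked 0.551% to 5.37%, and 41.4% of the genes were lowest there. It also held the highest level of 25.6% of the genes, against 11.4% to 18.4% for each of the others. For 22.7% of them its level was at most 0.1 times that of the lowest other library, with genes without a count taken at 0. This rule also counts any gene at 0 both there and in another library. Microglia markers had counts in every library, 13 of 13 listed genes in each.

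The test of day 10 against day 3 took in 4 members, Slfn2, Slfn5, Slfn8 and Slfn9, and 0 were called in either direction. With all 6 libraries none of them had an unadjusted p under 0.05 in edgeR. Among all genes tested, edgeR called 12 higher (0.114%) and 0 lower (0%), and 6.13% had an unadjusted p under 0.05. The log2 fold changes of the 4 tested members were all positive, with a median of 0.97, while the median over all 10535 genes tested was −0.0023. That of Slfn9 turned negative in other fits, such as limma-voom (−0.18). The other 3 members did not pass the filter on low counts, so these figures do not stand for the family. DESeq2 gave an adjusted p to 5 of the 7 members and called 1 of them, Slfn1, where it called 0.767% of all genes adjusted higher and 0.316% lower. In the fit without LPC day 10 replicate 3, 0 of the 5 members tested were called, against 1 gene called higher of 12173 (0.00821%). All 5 had positive log2 fold changes there, as did 5702 of the 12173 genes. Slfn1 passed the filter of that fit only through its day 10 counts. It had 0 counts at day 3, so its sign was fixed in advance. The authors' deposited table, read as day 10 over day 3, gives log2 fold changes of 0.27 for Slfn5, 0.66 for Slfn8, −0.49 for Slfn9 and 0.28 for Slfn2, with unadjusted p from 0.291 to 0.900.

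Slfn5, a long member with the helicase-like part, had the highest CPM of the family when averaged over the 6 libraries. It was found at 179.2, 66.5 and 70.9 CPM at day 3, against 204.4, 564.3 and 7.26 CPM at day 10. LPC day 10 replicates 1 and 2 lay above all day 3 libraries and LPC day 10 replicate 3 below all of them, so the groups overlapped in both directions. The day 3 mean of 105.5 ± 63.8 CPM compares with a day 10 mean of 258.7 ± 282.5 (SD over 3 libraries). The log2 fold change was 1.29 ± 0.96 (SE, edgeR quasi-likelihood test, adjusted p = 0.999), which is within the spread between replicates. Leaving out LPC day 10 replicate 3 gave 1.85 ± 0.62 (SE, edgeR unadjusted p = 0.00677 and adjusted p = 0.766), not called. Leaving out LPC day 10 replicate 2 gave −0.016. Part of the Slfn5 exons, 559 bases or 8.84% of their length, overlaps the antisense gene Slfn5os, which had 5 counts in LPC day 3 replicate 1 and none elsewhere.

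Slfn8, a long member close in sequence to Slfn9, had the smallest SD relative to its mean of the 4 members tested, at both times. It was measured at 152.2, 127.4 and 96.6 CPM at day 3, against 108.9, 354.1 and 207.1 CPM at day 10. LPC day 10 replicates 2 and 3 lay above all day 3 libraries, while LPC day 10 replicate 1 lay among them. Its day 3 mean of 125.4 ± 27.8 CPM compares with a day 10 mean of 223.4 ± 123.4 (SD over 3 libraries). Its log2 fold change was 0.83 ± 0.84 (SE, edgeR adjusted p = 0.999). It stayed positive when each library was left out in turn, with values from 0.32 without LPC day 10 replicate 2 to 1.16 without LPC day 10 replicate 1, and none was called.

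Slfn9, the other long member, stood at 41.1, 21.1 and 94.1 CPM at day 3, against 44.0, 192.8 and 1.88 CPM at day 10. The highest and the lowest library of the 6 were both from day 10, and LPC day 10 replicate 1 lay within the day 3 range. The means were 52.1 ± 37.7 CPM for day 3 and 79.5 ± 100.3 for day 10 (SD over 3 libraries). The log2 fold change was 0.61 ± 1.13 (SE, edgeR adjusted p = 0.999). It was 1.17 without LPC day 10 replicate 3 and −1.20 without LPC day 10 replicate 2, so its direction rests on which day 10 libraries are counted.

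Slfn2, the quiescence factor of T cells and monocytes, was lower and more uneven. Its level was 13.9, 0.427 and 11.3 CPM at day 3, the middle value from 3 counts, and 40.0, 15.4 and 0 CPM at day 10. LPC day 10 replicates 1 and 2 lay above all day 3 libraries and LPC day 10 replicate 3 had no count, so the groups overlapped. edgeR put the log2 fold change at 1.11 ± 1.74 (SE, adjusted p = 0.999). It was 1.66 without LPC day 10 replicate 3 and −0.15 without LPC day 10 replicate 1.

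The libraries LPC day 10 replicates 1 and 2, in which Slfn5 and Slfn2 were highest, also had higher levels of some markers of other cell types. The oligodendrocyte list summed to 114.2 and 72.2 CPM in them and to 15.6 to 34.3 CPM in the other 4, with 4 of its 6 genes analysed having a count and Cldn11 at 0. The endothelial list summed to 67.4 and 94.6 CPM, against 4.13 to 25.7 elsewhere, which rests on Flt1. Without Flt1 the sums were 13.1 and 20.6 CPM, against 1.85 to 15.6 elsewhere, and Cldn5 and Tek were at 0. Cspg4, a gene of oligodendrocyte progenitors and pericytes, stood at 104.2 and 33.7 CPM, against 0.996 to 12.97 elsewhere, while Pdgfra, Olig1, Olig2, Sox10 and Gpr17 had no count. Not all lists were higher there. The astrocyte list summed to 67.6 and 61.4 CPM in them and to 31.8 to 128.5 elsewhere, and the border macrophage list to 6.07 and 6.996 CPM, against 24.4 to 93.4 at day 3. The part of such cells in the Schlafen values was not tested.

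Slfn1, the short member for which the family was named, had counts at day 10 and none at day 3. It had 0 counts in all 3 libraries of day 3, and 127, 31 and 1 counts at day 10, which are 13.3, 3.34 and 0.269 CPM. The groups did not overlap, which 2.80% of all genes with a count also showed with day 10 higher, and the lowest day 10 value was a single count. That value lay below the 0.295 to 0.427 CPM that a count of 0 allows at day 3. LPC day 10 replicate 3 is therefore not resolved from the day 3 libraries for Slfn1. The mean of day 10 was 5.63 ± 6.81 CPM (SD, n = 3), which is 15.6 times the mean level of 3 counts per library at day 3. That mean rests mostly on LPC day 10 replicate 1, and was 1.80 CPM without it. A two-sided exact permutation test of the mean CPM gave p = 0.1, the smallest that 3 against 3 libraries can give. Slfn1 did not pass the low-count filter and was not tested with the others. With no filter edgeR did not call it (adjusted p = 0.488), while calling 0.576% of 19635 genes higher and 0.0255% lower. DESeq2 called it (adjusted p = 0.0302), as 1 of its 80 genes called higher among 10428 adjusted. In the authors' deposited table its log2 fold change of day 10 over day 3 was 5.29 with an unadjusted p of 0.00536.

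The T cell genes Cd3d, Cd3e and Cd3g were not analysed here, and Lck, Cd4, Themis and Trbc1 had no count in any library. Cd247, which encodes a T cell receptor signalling chain, had 3.27 CPM in LPC day 3 replicate 2, 6.38 in LPC day 10 replicate 1, 0.753 in LPC day 10 replicate 2 and at most 0.121 elsewhere. The cytotoxic gene Prf1 was detected in LPC day 10 replicate 1 alone, at 1.15 CPM. The other natural killer cell genes analysed, Ncr1, Klrb1c and Eomes, had no count in any library. LPC day 10 replicate 1 was thus the highest library for Slfn1, Slfn2, Cd247 and Prf1. Over the list of T cell markers, 2 of the 6 genes in the table had a count, and the summed level ran from 0.0982 to 3.27 CPM at day 3, against 0 to 6.38 CPM at day 10. Their part in the Slfn1 and Slfn2 values was not tested.

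Slfn4, the gene of myeloid cells, was detected in LPC day 3 replicate 3 alone, with 22 counts or 2.65 CPM, and had 0 counts in the other 5 libraries. The same library held nearly all counts of the neutrophil markers other than Csf3r. S100a8, an abundant calcium-binding protein of neutrophils, had 456 counts there and at most 1 in any other library, and S100a9, its partner, had 192 and at most 1. The granule gene Ngp had 232 counts there and at most 1 elsewhere, and Mmp8, a neutrophil collagenase, had 33 there and 0 elsewhere. Chil3, a gene of monocytes and neutrophils, had 149 counts there and 0 elsewhere. Of the 7 monocyte markers with any count, 2 were highest in that library, Chil3 and Itga4. Plac8 and Vcan had 0 counts there, and Ccr2 had 2 there against 52 in LPC day 10 replicate 2.

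Of the 8 neutrophil markers with any count, 7 were highest in LPC day 3 replicate 3, the exception being Csf3r, which was at 325.7 to 566.6 CPM in every library. Without Csf3r the neutrophil list summed to 111.1 CPM in LPC day 3 replicate 3 and to at most 0.269 CPM in the others, and with it to 451.5 to 516.9 CPM at day 3, against 326.0 to 566.7 at day 10. Ly6g, which encodes the antigen that the gate excluded, had 5 counts in LPC day 3 replicate 3. The monocyte list summed to 20.5 to 262.1 CPM at day 3, against 20.2 to 205.1 at day 10. The part of such cells in the Slfn4 count was not tested. Slfn4 was not tested for a difference by edgeR with the low-count filter, and without the filter it was not called (adjusted p = 0.663).

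Slfn3, the intermediate member next to Slfn4, had 52 counts or 5.60 CPM in LPC day 10 replicate 2, 1 count in LPC day 3 replicate 3 and none in the other 4 libraries. It also did not pass the filter, and edgeR without the filter did not call it (adjusted p = 0.685). A single library of day 10 therefore holds the day 10 value of Slfn3, and a single library of day 3 the value of Slfn4.

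**Figure D2:**
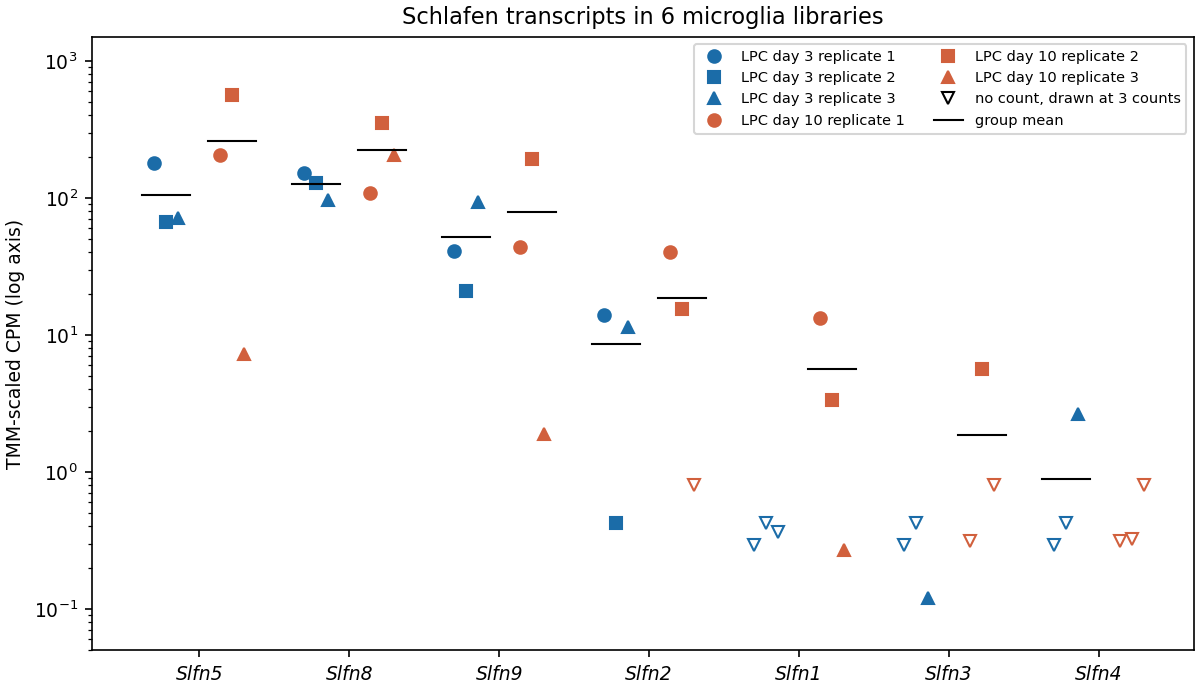
Level of each Schlafen member in each library in TMM-scaled CPM on a log axis, with LPC day 3 in blue and LPC day 10 in orange, 1 symbol shape per replicate number, and bars at the group mean where it is above 0. Open triangles stand for libraries with no count, drawn at the level of 3 counts. LPC day 10 replicate 3 (orange triangle) lies at 207.1 CPM for Slfn8 but at 7.26 for Slfn5 and 1.88 for Slfn9.

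**Figure D3:**
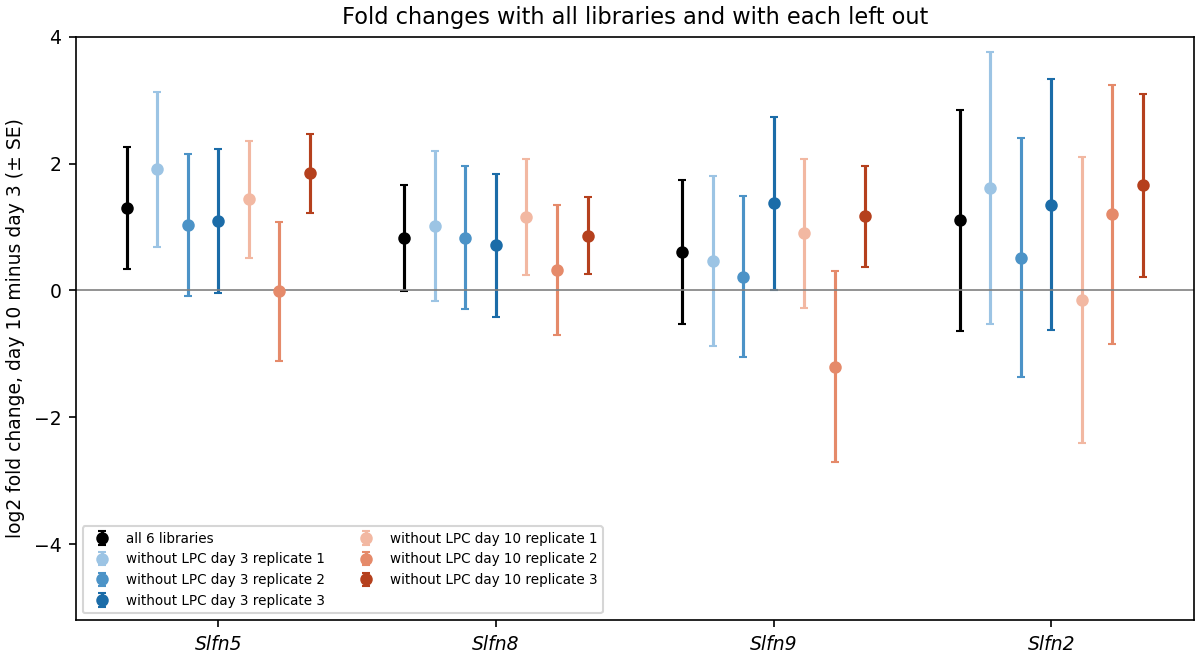
Log2 fold change of day 10 over day 3 with its SE (y axis) for the 4 members tested, from edgeR with all 6 libraries (black) and with each library left out in turn (blue shades for day 3, orange shades for day 10). Without LPC day 10 replicate 2 the value falls to −0.016 for Slfn5 and −1.20 for Slfn9, and that of Slfn8 stays at 0.32.

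Levels of different genes were compared per length, as CPM per kb of exon. At day 3 the order of the means was Slfn8 with 30.7 ± 6.80, Slfn5 with 16.7 ± 10.1, Slfn9 with 8.73 ± 6.33 and Slfn2 with 5.15 ± 4.31 CPM per kb (SD, n = 3). Slfn4, Slfn3 and Slfn1 were at 0.223, 0.0118 and 0. At day 10 the order was Slfn8 with 54.6 ± 30.2, Slfn5 with 40.9 ± 44.7, Slfn9 with 13.3 ± 16.8, Slfn2 with 11.1 ± 12.1, Slfn1 with 3.02 ± 3.65 and Slfn3 with 0.547, with Slfn4 at 0. Among the 4 highest, neighbours in either order overlap within 1 SD. The deposited FPKM, which the authors scaled to length and depth, gave the same order at day 3. At day 10 it exchanged Slfn9 and Slfn2, with means of 14.70 and 14.71 FPKM.

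Within a library, Slfn8 led per length in all 3 libraries of day 3 and in LPC day 10 replicate 3, and Slfn5 led in LPC day 10 replicates 1 and 2. The ratio of Slfn5 to Slfn8 counts ran 1.18, 0.522 and 0.734 in the day 3 libraries, against 1.88, 1.59 and 0.0351 in those of day 10. Slfn2 took 24.7% of the family's summed CPM per kb in LPC day 10 replicate 1, against 0 to 11.7% in the other libraries. The summed level over the 7 members was 386.3, 215.3 and 275.8 CPM at day 3, against 410.5, 1136 and 216.5 CPM at day 10.

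LPC day 10 replicate 3 stood apart in the makeup of the family. In it 770 of 805 Schlafen counts were from Slfn8, 95.7% with a 95% exact binomial interval of 94.0% to 97.0%, which covers counting error only. In the other 5 libraries Slfn8 made up 26.5% to 59.2% of the Schlafen counts. The ratio of Slfn8 to Slfn9 counts was 110 there, from 770 and 7 counts, and 1.03 to 6.05 elsewhere. Slfn9 was at most 0.1 times its next lowest library in it, as were 22.7% of all genes tested when ties at 0 are counted. Slfn2, with no count there, met this rule only with 0 taken as its level. A count of 0 allows up to 0.807 CPM there, so the ratio of Slfn2 cannot be given. Slfn5 narrowly missed the rule, at 7.26 CPM against 66.5 in its next lowest library. Slfn8 was not lowest in LPC day 10 replicate 3.

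**Figure D4:**
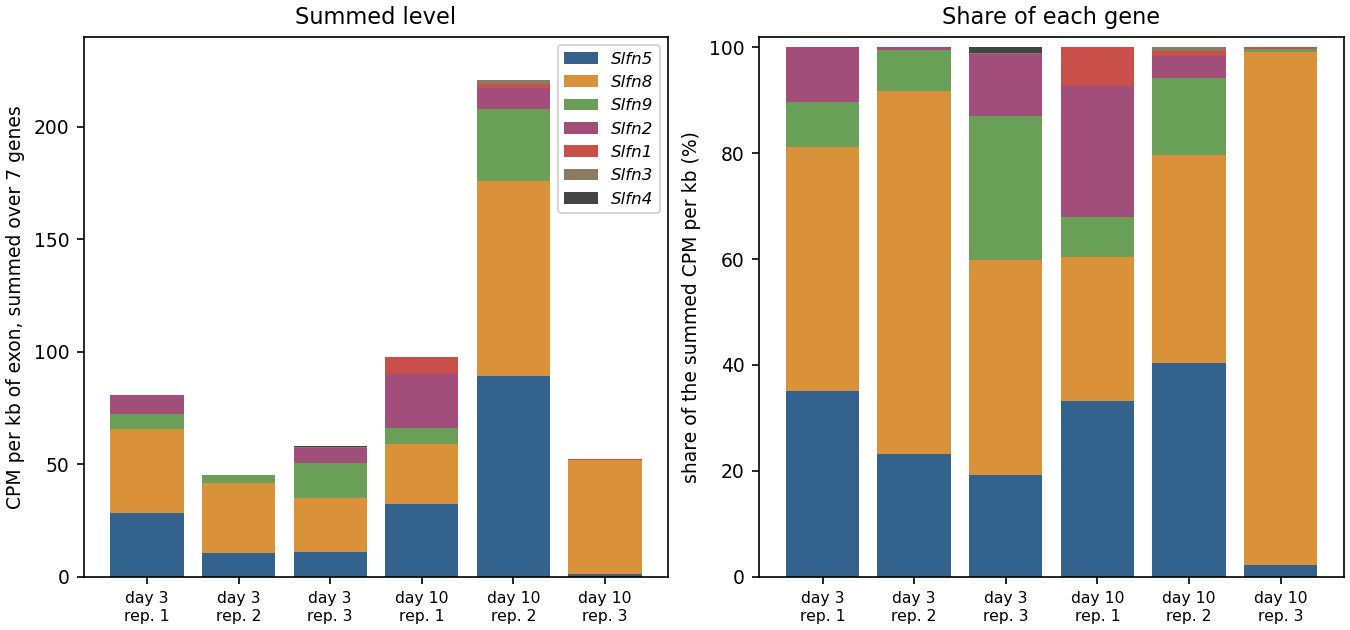
Schlafen level in each library, as CPM per kb of exon stacked over the 7 genes (left) and as the share of each gene in that sum in percent (right). Slfn8 (orange) leads in the day 3 libraries and fills nearly the whole bar of LPC day 10 replicate 3, and LPC day 10 replicate 2 has the highest sum, 220.8 CPM per kb.

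How far reads can tell the members apart was measured on the GENCODE M21 transcripts. The longest transcripts of Slfn8 and Slfn9 were 92.6% identical over 3496 aligned bases, and those of Slfn3 and Slfn4 92.9% over 1406. Of all windows of 100 bases, the length of 1 read, 3.39% of those of Slfn8 and 3.71% of those of Slfn9 occurred without a difference in another Schlafen transcript. For Slfn1 this share was 0, for Slfn2 0.128%, for Slfn3 0, for Slfn4 0.049% and for Slfn5 0. With all genes counted it was 2.92% for Slfn3, mostly shared with Gm11427, and 6.40% for Slfn5, mostly shared with Slfn5os. The labels do not state how reads that match several genes were counted, so the values of Slfn8 and Slfn9 carry that uncertainty.

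The pseudogene Slfn10-ps, of which 7.84% of the windows occur in other Schlafen transcripts, had 7.07, 16.5 and 0.362 CPM at day 3, against 0.105, 4.63 and 0 CPM at day 10. edgeR put its log2 fold change at −2.30 ± 2.12 (SE, adjusted p = 0.999), not called. Slfn14 and the more distant Slfnl1 on chromosome 4 had 0 counts in all libraries. Of the protein-coding genes next to the cluster, Unc45b and Rasl10b had 0 counts in all libraries and Nle1 had 2.30 CPM in LPC day 10 replicate 1 alone. Ap2b1, a subunit of the clathrin adaptor, had a log2 fold change of 1.01 and was not called by edgeR. It was highest in LPC day 10 replicate 3, with 405.0 CPM against 54.4 to 166.5 elsewhere.

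The genes of nearest pattern were found as those with the smallest root mean square difference in log2 CPM, each gene centred on its own mean over the 6 libraries, among 7816 candidates. For Slfn8 these were Plxdc2, a transmembrane protein gene, at 0.18, the GTPase gene Igtp at 0.23 and Trim30d at 0.24, where the median over candidates was 1.62. Plxdc2 had 1681, 1817 and 1112 CPM at day 3, against 1240, 3758 and 3001 CPM at day 10, so it too was highest in LPC day 10 replicate 2. For Slfn5 the nearest were the splicing factor gene Slu7 at 0.31, the mitochondrial magnesium channel gene Mrs2 at 0.35 and the growth factor gene Igf1 at 0.40, against a median of 2.09. Igf1 had 96.4, 37.0 and 53.2 CPM at day 3, against 105.6, 192.2 and 5.65 CPM at day 10.

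For Slfn9 the nearest were the DNA repair gene Aptx at 0.36, Gsto1 at 0.39 and Ly9, a lymphocyte receptor gene of the SLAM family, at 0.42 (median 2.20). For Slfn2 they were the septin gene Sept9 at 0.52, Psen2, a presenilin gene, at 0.56 and Wdsub1 at 0.58 (median 2.74). With LPC day 10 replicate 3 left out, 1 of the 3 nearest genes was shared for Slfn8 and Slfn2 and 0 for Slfn5 and Slfn9. Among the members, Slfn5 and Slfn9 were the pair nearest to each other over 6 libraries, at 0.88. Over the 5 libraries without LPC day 10 replicate 3, Slfn5 and Slfn8 were nearest, at 0.69 against 1.92 with all 6.

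Of the 10 interferon genes listed, only Ifnk was analysed here, and it had 0 counts. Of the 14 tested genes for interferon receptors and signal carriers, 0 were called in either direction, with 9 positive and a median log2 fold change of 0.37. Over all 10535 genes tested, 5261 were positive. Log2 fold changes were 0.79 for the receptor gene Ifnar1, −0.70 for its partner Ifnar2 and 0.51 for Irf9, the DNA-binding part of the ISGF3 complex. Stat2, another ISGF3 subunit, had 184.2, 194.3 and 2.15 CPM at day 10, against 44.5 to 154.6 at day 3. Like Slfn5 and Slfn9 it was lowest in LPC day 10 replicate 3, where Slfn8 was not. Irf7, a transcription factor gene that is itself induced by interferon, stood at 2.65, 0.142 and 1.45 CPM at day 3, against 33.4, 13.9 and 0.269 CPM at day 10, the last from 1 count. The groups overlapped, and its log2 fold change was 3.47 ± 2.01 (SE, edgeR adjusted p = 0.924).

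Of the 40 interferon-stimulated effector genes, all tested, 0 were called in either direction. With all 6 libraries 31 were positive, with a median log2 fold change of 1.00, against 5261 positive of all 10535 genes tested. Without LPC day 10 replicate 3, 34 were positive, with a median of 1.30. Over all genes tested in that fit, 5702 of 12173 were positive, with a median of −0.09. The 2 effector genes of smallest p with all 6 libraries were Ddx58, the RIG-I gene, and Herc6, of the HERC ligase family. Their log2 fold changes were 2.05 and 2.16, with edgeR adjusted p of 0.673 and 0.681. Herc6 had 57.3, 25.9 and 27.6 CPM at day 3, against 95.9, 223.5 and 175.3 CPM at day 10, and, as for Slfn5, Slfn8 and Slfn9, its highest level was in LPC day 10 replicate 2. Ddx58 had 64.9, 48.0 and 84.9 CPM at day 3, against 87.7, 130.5 and 600.0 CPM at day 10. Its highest level was thus in LPC day 10 replicate 3, where Slfn5 and Slfn9 were lowest. All 3 libraries of day 10 lay above all of day 3 for Herc6 and for Ddx58, as for 3.47% of the genes tested.

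As the family is known for transfer RNA cleavage and growth arrest, genes of those processes were also counted. Of 16 tested genes of translation and transfer RNA control, 0 were called in either direction, with 7 positive and a median of −0.25. The smallest p belonged to Ppp1r15a, which restarts translation after stress, at a log2 fold change of 5.07, with edgeR adjusted p = 0.213 and 493.0 CPM in LPC day 10 replicate 3 against 0.712 to 10.0 in the rest. Next was Adar, an RNA editing enzyme, at 2.35 (edgeR adjusted p = 0.863). Of 24 tested cell cycle genes, 0 were called, with 23 negative and a median of −1.26. Of all 10535 genes tested, 5261 were positive and 5274 negative. The survivin gene Birc5 was lower in all 3 libraries of day 10, at 0.209 to 0.538 CPM, than in those of day 3, at 6.26 to 35.1, and its log2 fold change was −5.68 (edgeR adjusted p = 0.524). That separation was shown by 4.97% of the genes tested. Rrm2, a ribonucleotide reductase subunit, had one of −3.97 (edgeR adjusted p = 0.648).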

How the data were processed

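Microglia from 6 mice were sequenced by the submitters as polyadenylated RNA. Their processing notes name STAR 2.5.2a, R 3.3.2, limma 3.30.8 and edgeR 3.16.5, with the GRCm38 build. The way reads were assigned to genes, the annotation and the strand were not given in the sources used here. Raw counts per Ensembl gene, as the authors deposited them, were tested here. The authors also deposited FPKM values, used by group because the columns are named by time point. The log2 fold changes and unadjusted p-values of the authors' deposited table set day 3 over day 10 per the file headers, and their sign was turned here. The authors' normalized table was not used.

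Each count column was tied to its library through the sample number in the labels. Symbols came from the FPKM table, and 22 that read as dates were replaced from a gene name table. Groups were compared with edgeR 4.0.16 under R 4.3.3: genes were kept by filterByExpr (smallest count 10), scaled by TMM and tested by the quasi-likelihood F-test on group alone. A gene was called when its p, adjusted by Benjamini-Hochberg over all 10535 genes kept, was below 0.05. The procedure was run on simulated data, at the spread of these data and at a much smaller spread. How often true changes were called at the spread of these data is not reported here. A gene not called is therefore not shown to be unchanged. An SE is the size of the log2 fold change over the root of F, with a prior count of 2 in log2 CPM. Exon lengths, positions and shared windows came from GENCODE M21 (GRCm38), identities from BLAST 2.17.0, and sequences from RefSeq GRCm38.p6. The p-values measure the spread between these libraries, and counts of amplified reads are not independent molecules. The genes named were the members, the other Schlafen-named genes, fixed interferon signal genes, the 2 of smallest p in other lists, neighbours in position and pattern, and list markers, some of which are not reported here. Further marker genes and the stretch shared by the short members' windows were chosen after their values or letters were seen. The members and lists were chosen with earlier results of these data known. Alternatives were other scalings and filters, DESeq2 1.42.0, limma 3.58.1 (voom, or trend on log-transformed FPKM with 1 or 0.1 added), a robust fit, a replicate block and each library left out.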

Additional observations from a re-analysis of the deposited data

How the results depend on the processing

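Of the 4 tested members, 0 were called under any alternative that was run, and the log2 fold change of Slfn8 was positive under each. That of Slfn9 turned negative with limma-voom (−0.18), limma-trend on FPKM plus 1 (−0.11, also with mean FPKM of at least 1) or plus 0.1 (−0.64) and the replicate block (−0.24). With each library left out in turn, values ran from −1.20 to 1.37 for Slfn9, −0.016 to 1.91 for Slfn5 and −0.15 to 1.66 for Slfn2. Slfn5 moved from 1.29 to 0.50 with limma-voom and to 0.29 and 0.012 with FPKM plus 1 and plus 0.1. Slfn2 moved from 1.11 to 0.38 with limma-voom and to 0.67 and 0.22 in those FPKM fits. The cause was not tested. Over all genes, the 12 called higher became 0 with RLE scaling, library size only, limma-voom, each FPKM fit and the replicate block. They became 113 with no low-count filter, 20 with the 1 CPM filter (3 or more libraries), 80 with DESeq2 and 2 with sample quality weights, and 1 to 208 with each library left out. The 0 called lower became 5 with no filter, 33 with DESeq2, 1 with the 1 CPM filter, limma-voom, sample weights or the robust fit, and 0 to 4 with each library left out. RLE scaling moved the median of all genes by 0.13. By the design text each library was 1 mouse, so no mouse was in both groups, and the replicate numbers were not taken as pairs. Deviations of same-numbered libraries correlated at 0.0733, −0.0351 and 0.00727 across genes, against −0.0805 to 0.0631 for libraries of different numbers. With 3 libraries per group these values cannot show or exclude shared handling of same-numbered libraries. The block gave 0.08 for Slfn5. Slfn1, Slfn3 and Slfn4 rest on 159, 53 and 22 counts in all.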
